A study of Mus musculus with 2 samples.

Results

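Cluster 10 is a set of 1197 of the 28867 mouse corneal cells in these data, taken as every cell that the authors' deposited table of cells assigned to that cluster. It held 565 of 16450 cells from unwounded corneas (UW) and 632 of 12417 cells from corneas taken 24 hours after wounding (W). The wound was a scrape of the central epithelium inside a 2.5 mm circle in male mice aged 6 to 8 weeks. Corneas of 4 mice were pooled for each library, split with dispase, and digested with trypsin (epithelium) or collagenase (the rest) before droplet capture. Each condition has 1 library, so no difference below has a replicate check and none was tested.

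By the GENCODE M21 annotation of GRCm38, Myoc lies at chr1:162639155-162649693, Penk at chr4:4133531-4138819 and Slc4a11, an endothelial gene, at chr2:130684113-130697519. Levels are unique molecular identifiers (UMIs) of a gene summed and divided by all UMIs of the same cells, on the counts-per-total scale called CPM, and changes are log2 ratios of CPM. Cluster 10 carried 5710692 UMIs in UW and 8319091 in W, with a median per cell of 9288 and 12198 UMIs, 2988 and 3479 genes, and 3.54% and 2.99% of UMIs from mitochondrial genes. A count of 3 UMIs, used as the floor where a gene had none, was worth 0.525 CPM in UW and 0.361 CPM in W. Intervals in parentheses are 95% intervals (exact Poisson for levels, exact conditional binomial for ratios, Clopper-Pearson for shares) and cover counting error only.

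The cornea has an outer epithelium, a collagen stroma kept by keratocytes, and an inner endothelium that pumps fluid out of the stroma. At its rim, the limbus joins the stroma to the white sclera and to the trabecular meshwork, the filter through which the eye's fluid drains. A cluster with Myoc and Col8a2 could belong to the endothelium, the meshwork or the limbal stroma, and its other genes bear on which.

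The name of the cluster held in both libraries for the genes it rests on. Myoc, which encodes the secreted glycoprotein myocilin of the meshwork, stood at 442 CPM (425 to 459.6) in UW and 931 CPM (910.1 to 952) in W. Penk, the precursor of the enkephalin peptides, stood at 622 CPM (602 to 643) and 739.5 CPM (721 to 758). The other stromal cluster, cluster 0, had 2.004 and 4.28 CPM of Myoc and 0.773 and 1.66 CPM of Penk, so of the stromal clusters nearly only cluster 10 had these genes. Igfbp7, an insulin-like growth factor binding protein of basement membranes, was level across the libraries at 1204 CPM (1175 to 1233) and 1198 CPM (1174 to 1222). Fmod, a proteoglycan of tendon and sclera, stood at 1175 CPM (1147 to 1203) and 997 CPM (976 to 1019). Col8a2, a collagen of the endothelium's basement membrane, stood at 709.7 CPM (688 to 732) and 666 CPM (649 to 684). Col8a2 was the least particular of the markers, since cluster 0 held 328 and 150.0 CPM of it. These 5 genes, given with the cluster, describe it and are not findings about it.

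Cluster 10 was closest to cluster 0 of all clusters that could be compared. Across 3216 genes, the levels of clusters 10 and 0, as log2 (CPM + 1), had a Pearson's r of 0.869 (UW) and 0.882 (W), where the next highest was 0.474 with cluster 9 in UW and 0.601 with cluster 13 in W. These are correlations across genes, which are not independent replicates. Both clusters shared the abundant matrix genes of corneal stroma. Dcn, the proteoglycan decorin, was the top one in cluster 10 with 44192 CPM in UW and 28895 CPM in W, beside 40495 and 22050.1 CPM in cluster 0. Lum, the keratan sulfate proteoglycan lumican, was also alike, with 7196 and 5331 CPM in cluster 10 and 7733 and 4853 CPM in cluster 0. Kera, the keratocan that is kept to keratocytes, was where they parted: it stood at 2747 and 795 CPM in cluster 10 and 7482 and 2537 CPM in cluster 0.

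Of 3530 genes with enough counts for the clusters to be compared, 147 (4.16%) were at least 2-fold higher in cluster 10 than in cluster 0 in both libraries, and 61 (1.73%) were at least 2-fold lower in both. Serpine2, a protease inhibitor of the matrix, followed Penk and Myoc with 197 and 393 CPM against 1.02 and 2.19 CPM. Aspn, a small proteoglycan of cartilage and ligament, stood at 123 and 181 CPM against 1.23 and 3.94. Omd, a related proteoglycan of mineralised and scleral tissue, stood at 240.1 and 139 CPM against 10.8 and 6.26. These secreted proteins were thus high in cluster 10 and at no more than 10.8 CPM in cluster 0 in both libraries. Igfbp6, which binds insulin-like growth factor 2, stood at 392 and 387 CPM against 7.88 and 9.21. Fbln1, an elastic fibre protein, stood at 251 and 442 CPM against 5.70 and 16.9. Col3a1, a collagen that is scarce in clear cornea and common in sclera, stood at 132 and 335 CPM against 14.8 and 24.5. Gas6, a ligand of receptors that clear dying cells, stood at 497 and 989.9 CPM against 29.2 and 36.1. The ranking took genes with an excess in both libraries, so that the excess stood in W too follows from the choice.

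The genes that were lower than in cluster 0 were fewer. Fgf21, a hormone of the fibroblast growth factor family, had the largest deficit with log2 ratios of -3.06 in UW and -2.89 in W, from 12.4 and 13.8 CPM in cluster 10 and 104 and 103 in cluster 0. Ass1, which makes argininosuccinate, stood at 93.2 and 38.6 CPM against 353 and 239.9. Crabp1, which binds retinoic acid, stood at 92.1 and 66.8 CPM against 279 and 368. A2m, a broad protease inhibitor, was abundant in both clusters and lower in cluster 10 at 4512 and 2278 CPM against 11709.6 and 5599. Of the 10 keratocyte list genes that were compared, 1 (Kera) was at least 2-fold lower, against 1.73% of all genes, and none was at least 2-fold higher, against 4.16%, so the other keratocyte genes passed 2-fold in at most 1 library.

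Several endothelial genes of cluster 10 were highest by far in a small group of its cells. A list of 17 genes of corneal endothelium was followed through 8 sub-clusters of cluster 10, which were numbered by size from 319 cells down to 9. Sub-cluster 8, the smallest, had 16 of the 17 genes at 100 CPM or more, while sub-clusters 1 to 7 had 6 to 13, the most being in sub-cluster 6. The list summed to 31770 CPM in sub-cluster 8 and to 2969 to 5221 CPM in the others. Slc4a11, a transporter that the endothelium needs to keep the cornea clear, stood at 1172 CPM in sub-cluster 8 and at 7.04, 2.05, 5.30, 2.41, 4.85, 35.9 and 12.3 CPM in sub-clusters 1 to 7. Car3, a carbonic anhydrase, stood at 15670.3 CPM in sub-cluster 8 and at no more than 53.9 CPM in any other. Atp1b1, a sodium pump subunit, stood at 2086 CPM there and next at 353 CPM in sub-cluster 6. Cdh2, the cadherin that joins endothelial cells, stood at 563 CPM there and next at 189 CPM in sub-cluster 6. These 4 genes were singled out after their values were seen.

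By the endothelium list, sub-cluster 8 was corneal endothelium-like, with a median of 23881 UMIs, 5308 genes and 7.87% mitochondrial UMIs per cell. Its stromal genes differed: Myoc and Penk each stood at 4.17 CPM, Kera at 8.34 CPM and Lum at 20.9 CPM, but Dcn at 8928 CPM and Ogn at 1056 CPM. Of the 11 keratocyte list genes, 5 reached 100 CPM in these cells, and how much of this was stray RNA was not tested. Col8a1, the partner chain of Col8a2, stood at 1928 CPM and Col8a2 at 2032 CPM, the highest levels of either gene in the 8 sub-clusters. Npy, a neuropeptide precursor, stood at 5649 CPM, and Car9, another carbonic anhydrase, named after its values were seen, at 263 CPM. All 9 cells came from UW, 1.59% (0.731 to 3.002) of its cluster 10 cells, while 0 of 632 W cells were in the group, which allows a share of up to 0.582%. A group from 1 library may belong to that library and not be a type, and whether wounding, dissection or chance set the difference was not tested. The 0 counts membership of the sub-cluster only. At full depth, 12 W cells of cluster 10 had UMIs of at least 3 of Slc4a11, Car3, Atp1b1 and Cdh2, and 2 had all 4. In UW outside sub-cluster 8, 7 cells had at least 3 and 2 had all 4. Cluster 0 had 0 cells with at least 3 in either library, and all other clusters had 6 in UW and 1 in W. Whether these W cells were endothelial was not tested.

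The other cells of cluster 10 had less of these endothelial genes, although most had Col8a2. After each cell was thinned to 5000 UMIs, Col8a2 was found in 91.0% (88.3 to 93.3) of UW and 90.5% (87.9 to 92.7) of W cluster 10 cells, and in 95.8% and 97.5% before thinning. Cluster 0 reached 76.7% and 49.8% after thinning, while epithelial cells, taken as a guide to stray RNA, reached 0.997% and 1.20%. Slc4a11 was found in 4.20% (2.68 to 6.24) of UW and 1.61% (0.776 to 2.95) of W cluster 10 cells after thinning, against 1.23% and 2.59% of epithelial cells and 1.04% and 0.703% of cluster 0 cells. The W share of Slc4a11 thus lay between those of epithelial and cluster 0 cells, and how much of it was stray RNA was not tested. Cdh2 was found in 7.50% (5.43 to 10.03) of UW and 3.87% (2.496 to 5.71) of W cells after thinning, against 0.173% and 0.117% of cluster 0 cells, so W cluster 10 kept some of it. These shares include sub-cluster 8, and without it, at full depth, the UW cells with Slc4a11 numbered 24 of 556 and those with Cdh2 52, while 40 and 53 of 632 W cells had them. Median depths before thinning were 9288 and 12198 UMIs in cluster 10 and 23669 and 25553 UMIs in epithelial cells, and 18 UW and 12 W cluster 10 cells with under 5000 UMIs were left out.

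**Figure D1:**
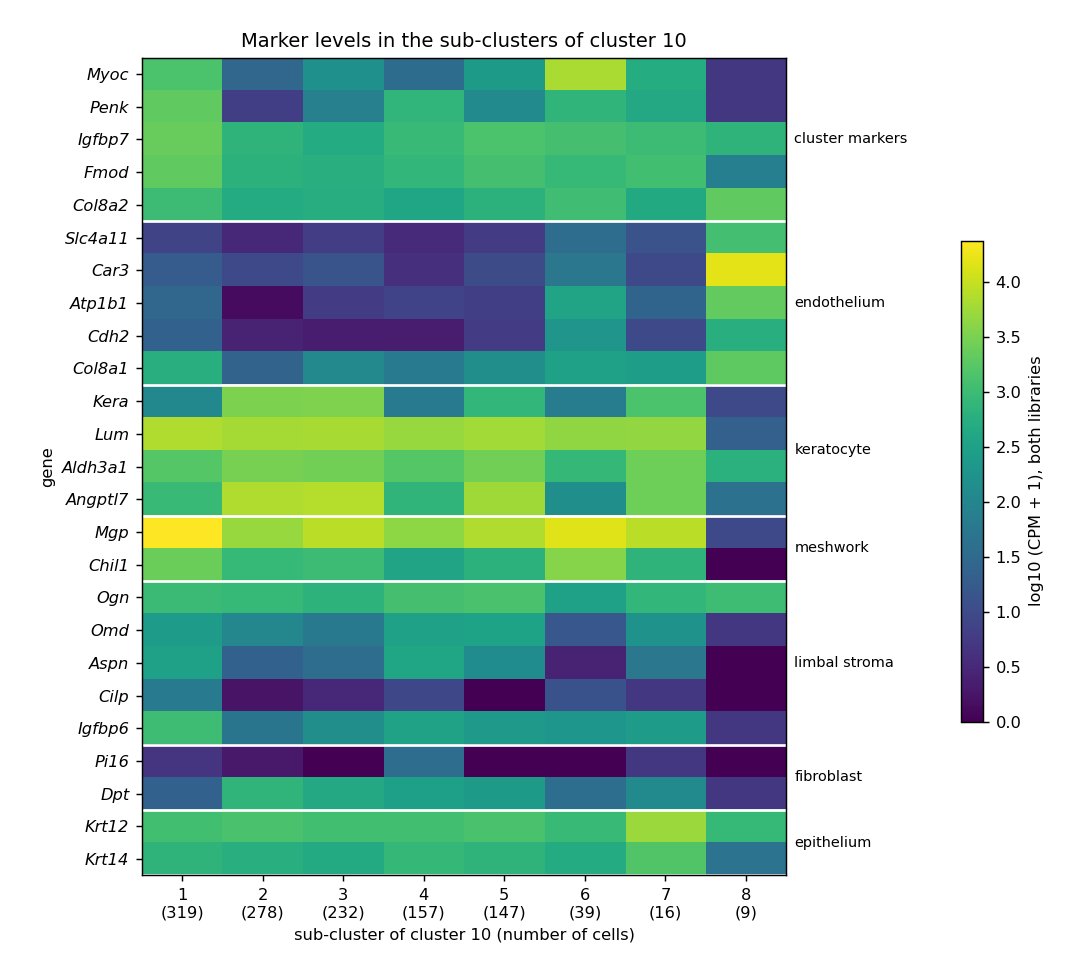
Level of marker genes (vertical axis, grouped by cell type list) in the 8 sub-clusters of cluster 10 (horizontal axis, with the number of cells), as colour on a log10 (CPM + 1) scale over both libraries. Slc4a11, Car3, Atp1b1 and Cdh2 are highest in the 9 cells of sub-cluster 8, and Kera is high in sub-clusters 2 and 3, where Myoc and Penk are low.

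The larger sub-clusters differed in Kera against Myoc and Penk, though not all were on a side. The genes that lead a sub-cluster describe how it was formed. Sub-cluster 1, with 319 cells, had Penk at 2018 CPM, Myoc at 1396 CPM and Kera at 109 CPM. Its leading gene by ratio to the other cells was Spp1, the phosphoprotein osteopontin, at 2179.7 CPM, though sub-cluster 6 held 2433 CPM. Mgp, an inhibitor of calcification that is abundant in meshwork, reached 23775 CPM. Sub-clusters 2 and 3, with 278 and 232 cells, had Kera at 3233 and 3373 CPM, Myoc at 26.98 and 154 CPM, and Penk at 5.46 and 80.4 CPM. They were the nearest of the 8 to cluster 0 in Kera and also held the most Angptl7, a secreted protein of keratocytes and meshwork, at 7140.1 and 7788 CPM. Sub-cluster 4, with 157 cells, had 62.1 CPM of Kera, 33.8 CPM of Myoc, 752 CPM of Penk and 1537 CPM of Col3a1. Sub-cluster 5, with 147 cells, was set apart by smaller ratios, led by C1ql2, a complement-related protein chosen after its values were seen, at 219 CPM and by Gsta3, a glutathione transferase, at 1135 CPM, and had 781 CPM of Kera, 244 CPM of Myoc and 119 CPM of Penk. It thus held all 3 at middle levels.

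Sub-cluster 6 was the richest in Myoc. Its 39 cells (20 UW and 19 W) had Myoc at 6541 CPM, Serpine2 at 3147 CPM, Mgp at 14421 CPM and Chil1, a chitinase-like protein of meshwork, at 3862 CPM. By library, Chil1 stood at 218 CPM in UW and 5476 CPM in W, and Mgp at 7249 and 17596.5 CPM. In UW both were higher in sub-cluster 1, at 438 and 14285 CPM. The cells of sub-cluster 6 were led by Nefl and Nefm, neurofilament chains, at 217 and 304 CPM, which were singled out after their values were seen. Kera stood at 70.2 CPM and Penk at 737 CPM in these cells, so Myoc and Penk did not peak in the same sub-cluster. Sub-cluster 7, with 13 UW and 3 W cells, held all 7 genes of the epithelial list at 100 CPM or more, with a sum of 10468 CPM, and 7.42% (UW) and 5.80% (W) mitochondrial UMIs, and its UW cells held all of Kera (1409 CPM), Myoc (663 CPM) and Penk (558 CPM), while the 3 W cells had no Myoc or Penk. Krt12, the keratin of corneal epithelium, was at 5236 CPM in these cells and at 1131 CPM in sub-cluster 1, and whether they were pairs of cells read as 1 was not tested.

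Single cells leaned the same way. In thinned UW cells, Kera was found in 31.3% of cells with Penk and 80.4% of cells without it, and in W the shares were 13.9% and 62.4%. Thinned epithelial cells, the guide to stray RNA, reached 10.6% (UW) and 7.81% (W) for Kera, and the part of stray RNA was not tested. Penk was found in 66.7% of UW cells with Myoc and 24.9% of those without, and in 64.3% and 35.6% in W. Myoc itself was found in 18.6% (15.5 to 22.2) of UW and 25.3% (21.9 to 28.9) of W thinned cluster 10 cells, against 0.480% and 1.01% of epithelial cells, with 22.1% and 33.2% before thinning. Penk was found in 32.7% (28.8 to 36.8) and 42.9% (39.0 to 46.9) of thinned cells, against 0.282% and 0.648% of epithelial cells, with 36.5% and 51.1% before thinning. Igfbp7 and Fmod were far wider, at 89.6% and 94.2% for Igfbp7 and 87.8% and 86.3% for Fmod after thinning. Thinned epithelial cells reached 3.07% and 8.17% for Igfbp7 and 1.33% and 1.74% for Fmod. Thinned cluster 0 cells reached 14.6% and 16.6% for Igfbp7 and 45.9% and 21.8% for Fmod. Of the cluster's markers, Myoc and Penk were therefore found in fewer of its cells than Igfbp7, Fmod and Col8a2.

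Lists of endothelial, limbal and meshwork genes were next set against cluster 0. Of 15 compared genes of corneal endothelium, 5 were at least 2-fold higher in cluster 10 in both libraries, against 4.16% of all genes. None was at least 2-fold lower, against 1.73% of all genes, and the median log2 ratio was 0.57 in UW and 0.49 in W. Col8a2, itself a marker of the cluster, was among the 5 that were higher, so part of this follows from how the cells were chosen. Sub-cluster 8 was included in these values. Of 9 compared genes of limbal and scleral stroma, 5 were at least 2-fold higher in cluster 10 in both libraries, against 4.16% of all genes, with a median log2 ratio of 2.83 in UW and 3.97 in W. The 12 listed genes summed to 4454 CPM in UW and 4659 CPM in W, with Fmod the most abundant in UW and Thbs2, a thrombospondin, in W, and to 1644 and 1453 CPM in cluster 0. Ogn, a proteoglycan of sclera and ligament, stood at 1115 and 772 CPM against 582 and 271, which was under 2-fold in UW. Cxcl14, a chemokine of connective tissue, stood at 164 and 573 CPM against 9.0004 and 16.3. By level, 8 of the 12 genes reached 100 CPM in each of sub-clusters 1, 4 and 5 (sums of 5705 to 6796 CPM), 5 or 6 in each of sub-clusters 2, 3, 6 and 7 (1854 to 3432 CPM) and 1 in sub-cluster 8 (1172.3 CPM). Sub-clusters 1, 4 and 5 were thus the most limbal stroma-like by this list, but the list shares Fmod with the markers, so part of this follows from how the cells were chosen.

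The meshwork list gave a divided answer. Of 5 compared genes, 3 were at least 2-fold higher than in cluster 0 in both libraries, against 4.16% of all genes, and these were Myoc, itself a marker of the cluster, Chil1 and Mgp. Tmeff2, a membrane protein, was at least 2-fold lower in both, against 1.73% of all genes, with 17.3 and 28.5 CPM against 58.3 and 190.5. Mgp stood at 7295 and 13952 CPM in cluster 10 and 3142 and 4772 CPM in cluster 0. Pdpn, a mucin-like membrane protein on the same list, was not higher, with 125 and 139 CPM against 153 and 229. The other 6 listed genes were too low to compare, with Rspo4 at 0 counts in both libraries and Fabp4 at 0 in UW and 18 counts in W. The list's sum was 27785 CPM in sub-cluster 1 and 24960 CPM in sub-cluster 6, 4937 to 9778 CPM in sub-clusters 2 to 5 and 7, and 367 CPM in sub-cluster 8, and over all of cluster 10 Mgp was the most abundant of the list.

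Most lists for other cell types had few UMIs in cluster 10. The melanocyte list summed to 1.05 CPM in UW and 0.481 CPM in W with Mlana, Tyrp1 and Tyr, its pigment genes, at 0 counts in both libraries. The list for pericytes and smooth muscle summed to 285 and 294 CPM, most of it from Pdgfrb (192 and 229 CPM), which fibroblasts also carry, and its defining genes Rgs5 and Cnn1 had 0 counts. Acta2, smooth muscle actin, stood at 48.3 and 27.4 CPM against 2.64 and 6.72 in cluster 0. Vascular endothelium summed to 38.2 and 45.8 CPM over 6 genes, most of it Kdr, a growth factor receptor, in UW (33.4 CPM) and Emcn, a sialomucin, in W (25.7 CPM), and lymphatic endothelium to 1.05 and 2.52 CPM over 4 genes. Skeletal muscle summed to 2.28 and 3.61 CPM over 4 genes found, most of it Tnnt3, with Ckm and Myh1 at 0 counts. Schwann cell genes summed to 13.7 and 9.98 CPM over 5 genes, most of it Mbp, with Sox10 at 0 and 2 counts. The 10 genes for fibroblasts of the conjunctiva and vessel wall summed to 762 and 1419 CPM, with Dpt, a matrix protein, the most abundant in UW (380.3 CPM) and Ly6a in W (839.6 CPM), the latter also an epithelial gene here at 968 and 1083 CPM.

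Epithelial RNA, as a sum, was somewhat higher in cluster 10 than in cluster 0. The 7 epithelial genes summed to 2820 CPM in UW and 3006 CPM in W, against 41031 and 38191 CPM in epithelial cells and 2402 and 2513 CPM in cluster 0. Krt12, the most abundant in UW, stood at 6.69% and 7.05% of its epithelial level in cluster 10 and at 5.81% and 5.96% in cluster 0, and Krt14, the most abundant in W, at 17.2% and 8.96% against 11.2% and 7.34%. The 7 immune genes summed to 15.8 CPM in UW and 201 CPM in W, with S100a9, a granulocyte protein, at 1.58 and 89.9 CPM. Cd3e had 0 counts in both libraries, and Ptprc, carried by all white cells, had 0 counts in UW and 9 in W. The part of these genes in the result was not tested, and 53 genes that stray RNA could carry were left out of the rankings by change. The libraries had 52 barcode sequences in common, and 0 of them lay in cluster 10 of both.

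Cluster 10 made up 19.3% (17.8 to 20.7) of the cells of clusters 0 and 10 in UW and 26.9% (25.1 to 28.7) in W. Among cells outside the immune clusters and the small cluster 17, its share was 3.44% (3.16 to 3.73) and 5.82% (5.39 to 6.28). Inside cluster 10, sub-cluster 1, with the Penk cells, was 21.8% (18.4 to 25.4) of UW and 31.0% (27.4 to 34.8) of W cells. Sub-cluster 4, with the Col3a1 cells, was 9.20% (6.95 to 11.9) and 16.6% (13.8 to 19.7). Sub-clusters 2 and 3, with most Kera, had lower shares in W. Sub-cluster 2 was 26.0% (22.4 to 29.8) and 20.7% (17.6 to 24.1), with intervals that overlap. Sub-cluster 3 was 22.8% (19.43 to 26.5) and 16.3% (13.5 to 19.41), with intervals that nearly touch. Dissection and digestion also set such shares, and their part was not tested.

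**Figure D2:**
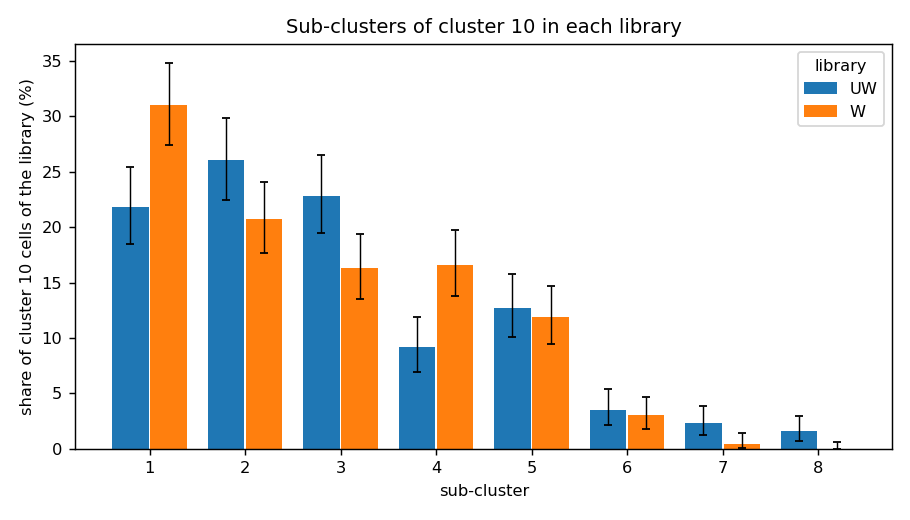
Share of each library's cluster 10 cells (vertical axis, percent) in each of the 8 sub-clusters (horizontal axis), with bars for UW and W and exact binomial 95% intervals as lines. Sub-clusters 1 and 4 have larger shares in W, sub-clusters 2 and 3 in UW, and sub-cluster 8 is at 1.59% in UW and 0 in W.

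Between the libraries, 134 of 3216 genes (4.17%) were at least 2-fold higher in cluster 10 of W and 83 (2.58%) at least 2-fold lower. The median log2 ratio over these genes was -0.01, and 0.10 with edgeR's TMM factors, so changes of this size lie within the choice of scale. Summed over all cells of cluster 10, the markers themselves moved little except Myoc, whose log2 ratio was 1.07 (1.01 to 1.14). Penk moved by 0.25 (0.19 to 0.31), Igfbp7 by -0.01 (-0.05 to 0.04), Fmod by -0.24 (-0.28 to -0.19) and Col8a2 by -0.09 (-0.15 to -0.03). Myoc rose in 5 of the 6 larger sub-clusters and fell in sub-cluster 4, with log2 ratios from -2.47 to 3.37, and the richest in Myoc, sub-cluster 6, moved by 0.44. Penk was higher in W in 3 of the 6 and lower in the other 3, among them sub-cluster 1, where most of it lay, at -0.31.

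The largest rise was in Saa3, an acute phase serum amyloid, from 3 counts (0.525 CPM) in UW to 12684 counts (1525 CPM) in W, a log2 ratio of 11.50 (9.96 to 13.78). Sub-cluster 8 held 2 of the 3 UW counts of Saa3, and without it the ratio was 13.03. That value rests on fewer UW counts than the floor of 3, so its size is not fixed. Lcn2, which withholds iron from bacteria, rose from 10.3 to 368 CPM (log2 ratio 5.15, and 5.89 without sub-cluster 8, which held 25 of its 59 UW counts), and Serpina3n, an acute phase protease inhibitor, from 37.5 to 1039.7 CPM. All 3 were far above the epithelial level in W, which was 23.7 CPM for Saa3, 21.1 CPM for Lcn2 and 11.1 CPM for Serpina3n. The list of 9 acute phase genes summed to 1091 CPM in immune cells of W and 5292 CPM in cluster 10. The part of stray RNA was not tested. Mmp3, the matrix-cutting stromelysin, rose from 875 CPM (851 to 900.0) to 8631 CPM (8568 to 8694), and its inhibitor Timp1 rose from 19.3 to 307 CPM. Chil1 rose from 151 to 2166 CPM. Gpha2, a glycoprotein hormone subunit, rose from 234 to 2611 CPM but was higher still in cluster 0 of W at 4206 CPM. Saa3, Lcn2, Serpina3n, Mmp3, Timp1, Chil1 and Gpha2 were each higher in W in all 6 larger sub-clusters.

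Chemokine genes were mostly higher in W. Of 10 chemokine genes that were tested, 9 were at least 2-fold higher in W, against 4.17% of all genes, and none was at least 2-fold lower, with a median log2 ratio of 3.32. Ccl2, which draws monocytes, rose from 18.4 to 233 CPM, and Ccl8, a related chemokine, from 2.80 to 87.5 CPM. Cxcl10, which draws T cells, rose from 18.2 to 286 CPM. Cxcl5, which draws neutrophils, was the most abundant chemokine of cluster 10 in W and rose from 147 to 1160.5 CPM. Its W level was 3174 CPM in sub-cluster 4 and 2308 CPM in sub-cluster 2, and 23.6 CPM in sub-cluster 6. Ccl7 and Cxcl2, both among the 9, also rose. In immune cells of W they stood at 1629 and 8291 CPM, against 78.5 and 119 CPM in cluster 10. Among the 6 larger sub-clusters of W, Ccl7 ranged from 25.7 CPM (sub-cluster 5) to 198 CPM (sub-cluster 4). Cxcl2 ranged there from 18.85 CPM (sub-cluster 6) to 198 CPM (sub-cluster 1). The part of stray RNA in either was not tested.

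Other sets rose in part. Of 6 tested acute phase genes, 4 were at least 2-fold higher, and of 8 tested interferon-induced genes, 5 were, against 4.17% of all genes. Ifi27l2a, an interferon-induced mitochondrial protein, rose from 104 to 1063 CPM and Irf7, a regulator of interferon genes, from 11.4 to 84.3 CPM. Irf7 reached 342 CPM in cluster 0, a higher level than in cluster 10. Ptgs2, the inducible prostaglandin synthase, rose from 103 to 381 CPM, and Cebpd, a transcription factor of the acute phase, from 246 to 794 CPM. Hmox1, which breaks down haem, rose from 42.2 to 301 CPM, S100a4, a calcium-binding protein of motile cells, from 82.5 to 727 CPM, and Myc, a growth regulator, from 8.06 to 69.8 CPM. Of 14 cell cycle genes, only the inhibitors Cdkn1a and Cdkn1c had enough counts to be tested, and neither passed 2-fold. Cdk1, a kinase of dividing cells that was too low to be tested, went from 0.876 CPM (5 counts) to 5.77 CPM (48 counts). Of 4 tested contractile genes, none was at least 2-fold higher and 1 lower, against 4.17% and 2.58% of all genes, Myl9, a myosin light chain, at 94.4 and 34.02 CPM.

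**Figure D3:**
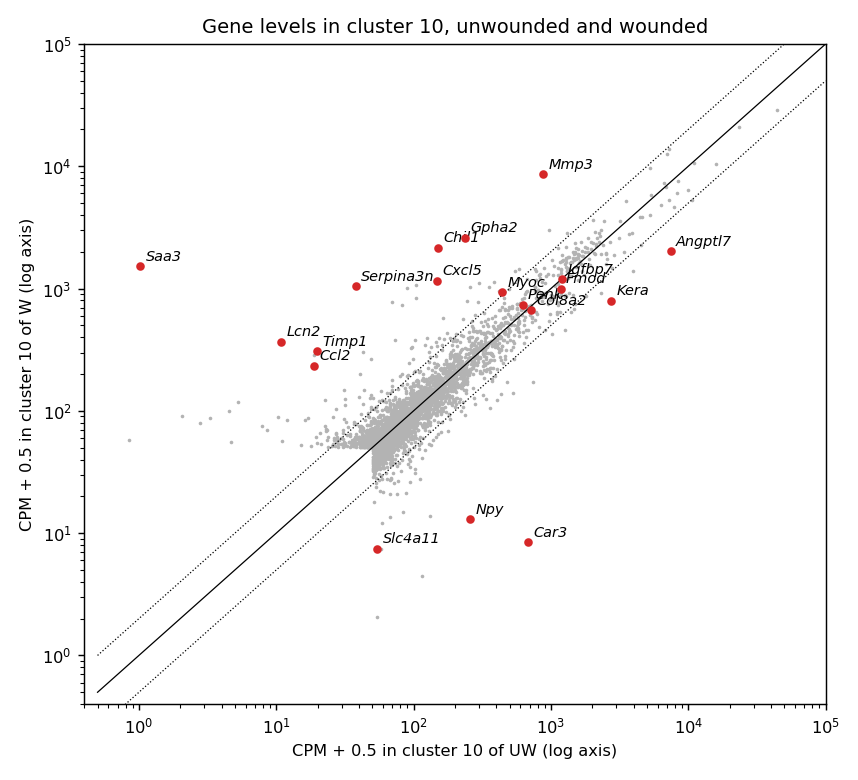
Level of each tested gene in cluster 10 of UW (horizontal axis) and W (vertical axis), as CPM + 0.5 on log axes, 1 point a gene, with lines for equal levels and for 2-fold differences. Saa3, Lcn2 and Mmp3 lie far above the lines and Car3, Npy and Slc4a11 far below.

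Several of the largest falls were in genes that the 9 endothelial-like cells held most of in UW. Car3 went from 678 CPM in UW to 7.93 CPM in W, a log2 ratio of -6.42 (-6.79 to -6.07), the lowest of all tested genes. Sub-cluster 8 gave 4.20% of the UW UMIs of cluster 10 but 97.0% of its Car3 counts, 91.2% of Slc4a11 and 79.4% of Atp1b1. Of the 20 genes with the lowest ratios, 10 had most of their UW counts in these cells. Slc4a11 went from 53.9 to 6.97 CPM (log2 ratio -2.95), and without sub-cluster 8 from 4.94 CPM to the same W level (0.50, -0.18 to 1.21). Atp1b1 went from 110.3 to 27.3 CPM (-2.02), and without those cells from 23.8 CPM (0.20, -0.12 to 0.52). Npy went from 257 to 12.5 CPM (-4.36), and without them from 20.5 CPM (-0.71, -1.11 to -0.31). Without the 9 cells, 16 of the 20 genes were still at least 2-fold lower, Car3 among them at -1.43 (-1.89 to -0.98), but Slc4a11 and Atp1b1 changed direction. Summed over the other cells, Slc4a11 and Atp1b1 thus did not fall, while single sub-clusters went either way, with Slc4a11 lower in 2 and Atp1b1 in 3 of the 6 larger ones.

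Part of the keratocyte list was lower in W. Of 10 tested genes, 3 (Kera, Angptl7 and Ntrk2) were at least 2-fold lower, against 2.58% of all genes, and 1 (Gpha2) was higher, against 4.17%. Kera fell from 2747 to 795 CPM, a log2 ratio of -1.79 (-1.83 to -1.75), and sub-cluster 8 held 2 of its 15689 UW counts. It was lower in 5 of the 6 larger sub-clusters, with -1.33 in sub-cluster 2 and -1.35 in sub-cluster 3, and higher in sub-cluster 6 (1.45), which had little of it. Angptl7 fell from 7454 to 2014 CPM (-1.89 (-1.91 to -1.86)), again in 5 of the 6. Outside that list, Peg3, an imprinted zinc finger gene, fell from 405 to 123 CPM, and Alcam, an adhesion molecule also on the endothelium list, from 361 to 105 CPM, with both lower in all 6 sub-clusters. Gstp1, a glutathione transferase, fell from 58.3 to 11.5 CPM. Of 13 tested non-fibrillar collagens, 5 were at least 2-fold lower and 1 higher, against 2.58% and 4.17% of all genes. Col4a3 and Col4a4, basement membrane chains among these 5, had 67.6% and 64.0% of their UW counts in sub-cluster 8 and had log2 ratios of -3.08 and -2.54 with it and -1.51 and -1.12 without it. Col6a1 fell from 2322 to 927 CPM and Col6a2 from 1261 to 458 CPM, both chains of the beaded filament collagen, and Col23a1, a membrane collagen, rose from 25.2 to 88.6 CPM. Col3a1 was the only fibrillar collagen of 7 tested past 2-fold, higher in W, against 4.17% of all genes, from 132 to 335 CPM (log2 ratio 1.34, and 0.46 with sub-clusters 1 to 6 weighted alike), while Col1a1, the main collagen of stroma, went from 9911 to 6338 CPM.

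Most of these changes were shared with cluster 0 in direction. Of the 134 genes at least 2-fold higher in W, 105 were also at least 2-fold higher in cluster 0 and 4 were lower there, and of the 83 at least 2-fold lower, 62 were also at least 2-fold lower and 1 was higher. Of all 3216 genes, 180 (5.60%) were at least 2-fold higher in cluster 0 of W and 146 (4.54%) lower. Of the 10 genes whose change was lowest against that in cluster 0, 6 are given next. Mmp3 stood at 875 CPM in cluster 10 and 4.22 CPM in cluster 0 of UW, and at 8631 and 4515 CPM in W, so its log2 change minus that in cluster 0 was -6.76. Timp1 stood at 19.3 and 0.211 CPM in UW and at 307 and 517 CPM in W, a difference of -7.26. Chil1 stood at 151 and 1.86 CPM in UW and at 2166 and 829.7 CPM in W, a difference of -4.96. Tnc, a matrix protein of wounds, stood at 120.0 and 0.492 CPM in UW and at 348 and 34.4 CPM in W, and Spp1 at 257 and 1.16 CPM and at 1029 and 55.7 CPM. Cxcl5 stood at 147 and 0.598 CPM in UW and at 1160.5 and 112 CPM in W. In cluster 0 of UW, 3 counts stood for 0.105 CPM, so Timp1, Tnc and Cxcl5 rested on few counts there. The sizes of their differences are thus not fixed. All 6 genes were higher in cluster 10 than in cluster 0 of UW, which the ranking itself favours. The other 4 were Lcn2, at 0.457 and 425 CPM in cluster 0, Ms4a4d, a membrane protein, at 35.4 and 57.6 CPM in cluster 10 and 1.51 and 28.01 CPM in cluster 0, and Npy and Slc14a1, a urea transporter, of which sub-cluster 8 held 92.4% and 92.5% of the UW counts. The authors removed cells with dissociation signatures, and the part of stress from the digestion, which reached all stroma of both libraries, was not tested.

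**Figure D4:**
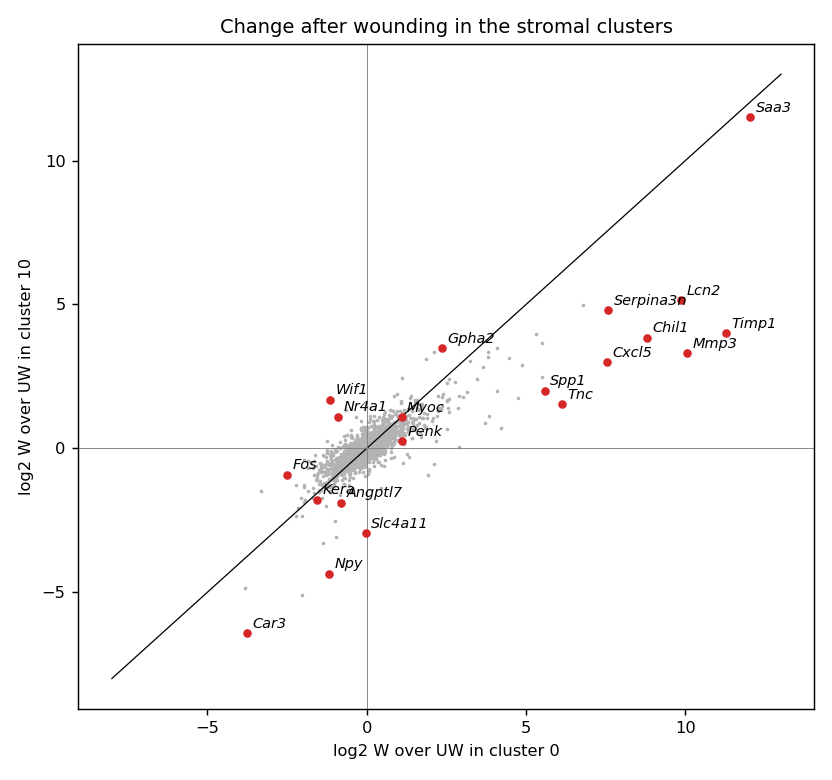
Log2 ratio of W over UW in cluster 0 (horizontal axis) and in cluster 10 (vertical axis) for the 3069 genes that entered the rankings, with a line for equal changes. Mmp3, Timp1, Chil1, Cxcl5, Tnc and Spp1 lie below the line at right, and Wif1 lies above 0 for cluster 10 and below 0 for cluster 0.

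At the other end of the ranking by difference stood some early response genes. Of 12 tested genes of that list, 2 were at least 2-fold higher in cluster 10 of W, against 4.17% of all genes, and none was at least 2-fold lower, against 2.58%. Fos, part of the AP-1 factor, stood at 2785 CPM in UW and 1473 CPM in W in cluster 10, and at 3377 and 597 CPM in cluster 0, a difference in log2 change of 1.58. Egr1, another factor induced within minutes, stood at 911 and 457 CPM in cluster 10 and 1248 and 218 CPM in cluster 0 (1.52). Nr4a1, a nuclear receptor of the same early class, rose from 161 to 345 CPM in cluster 10 and went from 192 to 103 CPM in cluster 0 (1.99). Nr4a2, its close relative, rose from 146 to 366 CPM and went from 124 to 78.6 CPM. Nr4a1 and Nr4a2 were higher in W in all 6 larger sub-clusters, while Fos and Egr1 were lower in all 6. Meg3, a long noncoding RNA, fell in both clusters, from 481 to 170.3 CPM and from 593 to 59.8 CPM.

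Promoters were read for the 20 genes with the largest rises, 12 of which had an entry among RefSeq promoters of the GRCm38.p6 build (250 bases before to 50 after the start). On either strand, TTGCNNAA, letters bound by C/EBP factors, was in 3 of the 12 (Saa3, Lcn2 and Mmp3) and in 10.8% of all 27025 promoters. TGANTCA, bound by AP-1, was in 2 (Cxcl10 and Mmp3) and in 7.93% of all, GGGNNTTCC, bound by NF-kB, in 1 (Cxcl10) and 5.72% of all, and TTCNNNGAA, bound by STAT factors, in 0 and 8.47% of all. The 3 with TTGCNNAA are shown because they include the largest relative rise (Saa3), with the matches in capitals, and a match describes letters only. Saa3 is chr7:46715627-46715926 on the minus strand, Lcn2 chr2:32387690-32387989 on the minus strand and Mmp3 chr9:7445572-7445871 on the plus strand.
Saa3: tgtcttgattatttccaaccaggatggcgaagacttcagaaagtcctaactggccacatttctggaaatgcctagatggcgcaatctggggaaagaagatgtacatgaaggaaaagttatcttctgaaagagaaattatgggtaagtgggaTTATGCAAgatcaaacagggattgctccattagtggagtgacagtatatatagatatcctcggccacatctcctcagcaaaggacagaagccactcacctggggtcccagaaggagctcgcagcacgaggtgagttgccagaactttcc
Lcn2: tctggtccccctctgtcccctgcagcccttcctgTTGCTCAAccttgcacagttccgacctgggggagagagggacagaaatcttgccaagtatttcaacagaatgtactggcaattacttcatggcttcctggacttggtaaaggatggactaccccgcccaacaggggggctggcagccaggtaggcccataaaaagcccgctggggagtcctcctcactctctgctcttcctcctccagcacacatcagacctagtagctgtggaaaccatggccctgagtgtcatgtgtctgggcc
Mmp3: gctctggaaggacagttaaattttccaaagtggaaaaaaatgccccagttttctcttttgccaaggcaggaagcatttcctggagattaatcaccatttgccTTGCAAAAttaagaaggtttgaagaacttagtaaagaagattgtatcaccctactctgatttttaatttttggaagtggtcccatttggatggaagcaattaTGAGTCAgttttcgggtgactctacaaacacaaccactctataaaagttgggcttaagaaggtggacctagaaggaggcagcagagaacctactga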

How the data were processed

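Cells of mouse cornea were captured on the 10x Chromium platform as 1 library per condition. Per the labels, reads were counted with Cell Ranger 3.1.0, the build was mm9 and the kit v3, whereas the paper's methods name an mm10 reference and V2 chemistry, and the conflict was not settled here. The authors' filter in Seurat 3.2.2 asked for 500 to 8000 genes per cell and no more than 10% mitochondrial UMIs, and they removed doublets with DoubletFinder 2.0.3, and deposited raw UMI counts with a table of cells that gives library and cluster. The paper's methods also describe removing cells with dissociation-induced signatures when other marker genes did not explain them. In the deposited doublet columns, 2 UW cells of cluster 10 were called in 1 column and 3 W cells in another, and all were kept. Counts of 20198 genes were summed per library and cluster in Python 3.11.15 with numpy 2.4.6, scipy 1.17.1 and pandas 2.3.3 and divided by their total (CPM). With 1 library per condition there is no test.

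A gene was tested for a 2-fold change if either library reached 50 CPM and both together 20 counts. Cluster 10 was divided with scanpy 1.11.5 (libraries centred apart, 1000 variable genes, 15 components, 15 neighbours, Leiden resolution 0.5). Epithelial cells were those of 10 clusters. Genes named were taken from the 5 markers and members of the cell type and pathway lists, the 25 leading over cluster 0, the 25 leading over the other clusters, the 15 lowest against cluster 0, the 20 largest and 20 smallest ratios of W over UW, and the 10 largest and 10 smallest differences in change from cluster 0. The rankings left out mitochondrial, haemoglobin and ribosomal genes, and those by change also genes under 10% of the epithelial or immune level. Not every gene within this rule is reported here. Genes outside this rule are marked as chosen after their values were seen. Members and lists were chosen with earlier results of these data known. Alternatives were a stricter cell filter, TMM factors (edgeR 4.0.16), size factors (DESeq2 1.42.0), means of per-cell CPM, thinning, and leaving out cells with epithelial RNA. Promoters of chromosome 18 were not used. Intervals and folds were tested on simulated data.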

Additional observations from a re-analysis of the deposited data

Results flagged for a closer look

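Wif1, a secreted inhibitor of Wnt signals, moved in opposite directions in the stromal clusters. In cluster 10 it rose from 18.9 CPM (108 counts) in UW to 60.7 CPM (505 counts) in W, a log2 ratio of 1.68. In cluster 0 it went from 30.6 CPM (870 counts) to 13.9 CPM (450 counts), a log2 ratio of -1.14. The difference was not tested, since each condition has 1 library. Within cluster 10, Wif1 was highest in sub-cluster 4 at 227 CPM, and it was higher in W in 5 of the 6 larger sub-clusters. Its log2 ratio was 1.04 within sub-cluster 4 and -0.92 in sub-cluster 1, where it was lower in W. Sub-cluster 4 also had a larger share in W, 16.6% against 9.20% in UW, and the cause of the rise was not tested.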

How the results depend on the processing

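A pair of alternatives was added after the data were seen: leaving out the 9 cells of sub-cluster 8, and weighting sub-clusters 1 to 6 alike in both libraries. Without sub-cluster 8, the log2 change of Slc4a11 turned from -2.95 to 0.50 and that of Atp1b1 from -2.02 to 0.20, and the change relative to cluster 0 turned from -2.92 to 0.53 for Slc4a11, from -2.66 to 2.32 for Car3, from -3.18 to 0.47 for Npy and from -3.08 to 0.60 for Slc14a1. With equal weights, which also leave out those cells, Slc4a11 changed by 0.43, and relative to cluster 0 Slc4a11 by 0.46, Car3 by 2.17, Npy by 0.34 and Slc14a1 by 0.17, while Atp1b1 stayed lower in W at -0.22. Among the other named genes, the ratio of Sox10 to cluster 0 in W turned from 1.38 to -0.44 with means of per-cell CPM, and the change of Ptprc from 1.04 to -1.77 with thinning, both on few counts, and the cause was not tested. No other log2 ratio of a named gene that was at least 1 in size changed sign under an alternative. Of 95 log2 ratios between the libraries, 54 stayed within their intervals under the stricter filter, 56 with TMM factors, 58 with size factors, 62 as means over cells, 68 without sub-cluster 8, 30 with equal weights, and 60 of 94 after thinning. Leaving out cells with over 2% epithelial UMIs removed 1 UW cell and 0 W cells.

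The summed level of the 5 markers was 4152 CPM in UW and 4532 CPM in W. In UW it was 3641 CPM under the stricter cell filter (at least 1000 genes, at most 5% mitochondrial UMIs), 3910.3 with TMM factors, 3942 with DESeq2 size factors, 4213 as a mean over cells, 4241 after thinning, 4211 without sub-cluster 8 and 4801 with equal weights. In W it was 4611 with TMM factors, 4638 with size factors, 4366 as a mean over cells, 4458 after thinning and 4258 with equal weights, so equal weights put UW above W. The markers' median log2 ratio to cluster 0, taking the lower library for each, was 4.76, and 4.48 as a mean over cells and 4.53 after thinning. The median change of all tested genes was -0.01, and 0.10 with either set of factors. Of the genes past 2-fold, 61.8% were higher in W, and 72.0% (162 higher, 63 lower) with TMM factors and 71.7% with size factors.

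The count of genes past 2-fold between the libraries (217, of which 134 higher and 83 lower in W) was 1443 (618 and 825) with no minimum CPM, where the balance turned to 42.8% higher, and 133 (85 and 48) at 100 CPM. The count over cluster 0 went from 147 to 861 with no minimum CPM. The minimum sets how many genes enter. Under the stricter filter, which kept 476 UW and 606 W cells, the UW share of cluster 10 fell from 3.43% to 3.09% of all cells, from 3.44% to 3.09% of non-immune cells and from 19.3% to 17.3% of clusters 0 and 10, while the W shares stayed within their intervals, and the cause was not tested. At resolution 0.3 there were 5 sub-clusters and at 0.8 there were 10, and the 9 cells of sub-cluster 8 formed a cluster of their own at both.

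No paired analysis was possible because each condition has 1 library. The paper assigned cells to mice with Souporcell, but cells were not split by mouse here, so differences between animals were not measured. Differences between dissections and capture runs cannot be told apart from the wound. Clusters were formed from the same genes that describe them, and depth limits rare genes: 3 counts, the floor used for a gene with none, stand for 0.525 CPM in UW and 0.361 CPM in W.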
